A study of Mus musculus with 8 samples.

Results

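The 8 genes described here lie outside the Dlk1-Dio3 domain and are known to be read mainly or only from the maternal chromosome. They were chosen by name, in the mRNA table, through their Ensembl gene identifiers. No cutoff on a measured value was used, but earlier results of these data were known. All 8 were present among the 29639 entries of the table, and 6 of them, Cdkn1c, Phlda2, Grb10, Asb4, Zim1 and Ube3a, were kept at 1 FPKM or more in at least 2 columns, as were 13279 genes in all. FPKM is a level scaled to transcript length and to the depth of the column. Kcnq1 and Slc22a18 lay below that limit and enter counts and medians only where all 8 are named. The positions given are those of RefSeq genes on GRCm38.p6.

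The samples were whole mouse embryos. The series describes them as embryonic day 12.5, while the sample titles give slightly different days, ascending from wild type (WT) through PKI and MKI to HOMO. In PKI the Gtl2 promoter carried an insertion of 3 polyadenylation cassettes, which end a transcript early, on the paternal copy, in MKI on the maternal copy and in HOMO on both; WT carried none. Gtl2, also named Meg3, is the maternally expressed non-coding RNA at the head of the Dlk1-Dio3 domain on chromosome 12. The insertion was made with Easi-CRISPR, a way of inserting long DNA templates with Cas9, and neither strain nor sex is given in the labels. The labels count 2 libraries for each genotype, but the mRNA table has 1 column for each. Whether such a column is 1 library or a mean is not stated, so no mRNA difference below has an error or a test.

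A few facts of the columns bear on everything that follows. MicroRNAs of the domain took 13.7% and 12.4% of small RNA reads in WT and PKI against 0.407% and 0.424% in MKI and HOMO, the genotypes labelled with a maternal insertion. Across the 13279 genes Pearson's r between MKI and the other columns was 0.864 to 0.882, against 0.961 to 0.975 among the other columns. The 4 Y-linked markers listed summed to 0 FPKM in WT and to 42.3 to 73.3 FPKM in the knock-in columns. Each comparison with WT thus also sets a column without RNA of these markers against one with it. There, a difference of genotype and one of sex cannot be told apart. In whole embryos, fewer cells of a type and less RNA per cell cannot be told apart. FPKM counts RNA of both alleles together, so nothing here says which parental copy was read.

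Imprinted genes are read from 1 parental copy, mostly because DNA methylation laid down in a germ line marks a control element differently on the 2 chromosomes. Many maternally expressed genes restrain growth of the fetus or placenta, whereas many paternally expressed ones promote it. Of the 8 genes, 4 share a cluster on distal chromosome 7, where the paternally read non-coding RNA Kcnq1ot1 keeps the paternal copies silent. Cdkn1c encodes p57Kip2, an inhibitor of cyclin-dependent kinases. Phlda2 encodes a pleckstrin homology domain protein that limits placental growth, Kcnq1 a voltage-gated potassium channel and Slc22a18 a membrane transporter of the organic cation family. Grb10 encodes an adaptor that binds insulin and IGF1 receptors and damps their signal; it is read from the maternal copy in most tissues and from the paternal copy in neurons. Asb4 encodes a substrate receptor of a cullin 5 ubiquitin ligase, Zim1 a zinc finger protein next to Peg3, and Ube3a a HECT ubiquitin ligase that is imprinted in neurons and read from both copies elsewhere.

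A pair of promoters is shown because the genes mark the ends of the variation described below, Grb10 with the narrowest and Asb4 with the widest range over the 4 columns in the FPKM as deposited; under quantile normalization Cdkn1c was narrowest. Each line gives the 250 bases before the start site, from RefSeq on GRCm38.p6, with every CG dinucleotide, the target of methylation, in capitals. The Grb10 window is chr11:12037421-12037670 on the minus strand and the Asb4 window chr6:5383136-5383385 on the plus strand.
Grb10: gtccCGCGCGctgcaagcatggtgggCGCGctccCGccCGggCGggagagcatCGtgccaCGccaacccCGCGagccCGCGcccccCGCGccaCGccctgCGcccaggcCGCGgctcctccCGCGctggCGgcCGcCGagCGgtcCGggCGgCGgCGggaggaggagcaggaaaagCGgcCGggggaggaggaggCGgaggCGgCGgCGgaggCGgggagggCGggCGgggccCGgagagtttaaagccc
Asb4: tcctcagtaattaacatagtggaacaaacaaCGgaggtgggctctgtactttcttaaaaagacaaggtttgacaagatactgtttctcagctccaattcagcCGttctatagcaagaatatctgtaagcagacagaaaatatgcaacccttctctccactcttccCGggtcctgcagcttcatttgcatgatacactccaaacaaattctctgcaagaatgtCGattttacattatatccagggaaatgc
The Grb10 window holds 40 CG, a number that 1.31% of 32851 RefSeq promoter windows reach, and the Asb4 window holds 4, which 62.2% reach. Other windows matched were those of Ube3a with 24 CG, Phlda2 with 21, Zim1 with 14 and Slc22a18 with 0, beside second start sites of Grb10 and Asb4 with 8 each; Cdkn1c and Kcnq1 had no window. The median window holds 6.0. CG reads the same on both strands, and these numbers describe sequence and not methylation, which was not measured.

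The levels of the 8 genes reached from below the filter to the top ranks of the genes kept. Cdkn1c and Grb10 were the highest of the 8, at 204 to 295 and 236 to 261 FPKM, at or above the 98.8th percentile of the genes kept in every column. Ube3a (32.0 to 60.1 FPKM) and Asb4 (21.8 to 47.1 FPKM) came next and overlapped each other, followed by Zim1 (7.10 to 10.98 FPKM) and Phlda2 (0.794 to 1.52 FPKM). Kcnq1 (0.176 to 0.340 FPKM) and Slc22a18 (0.249 to 0.337 FPKM) were lowest and could not be ordered. The order of these 5 tiers was the same in all 4 columns, as the plot of levels by genotype shows.

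**Figure D1:**
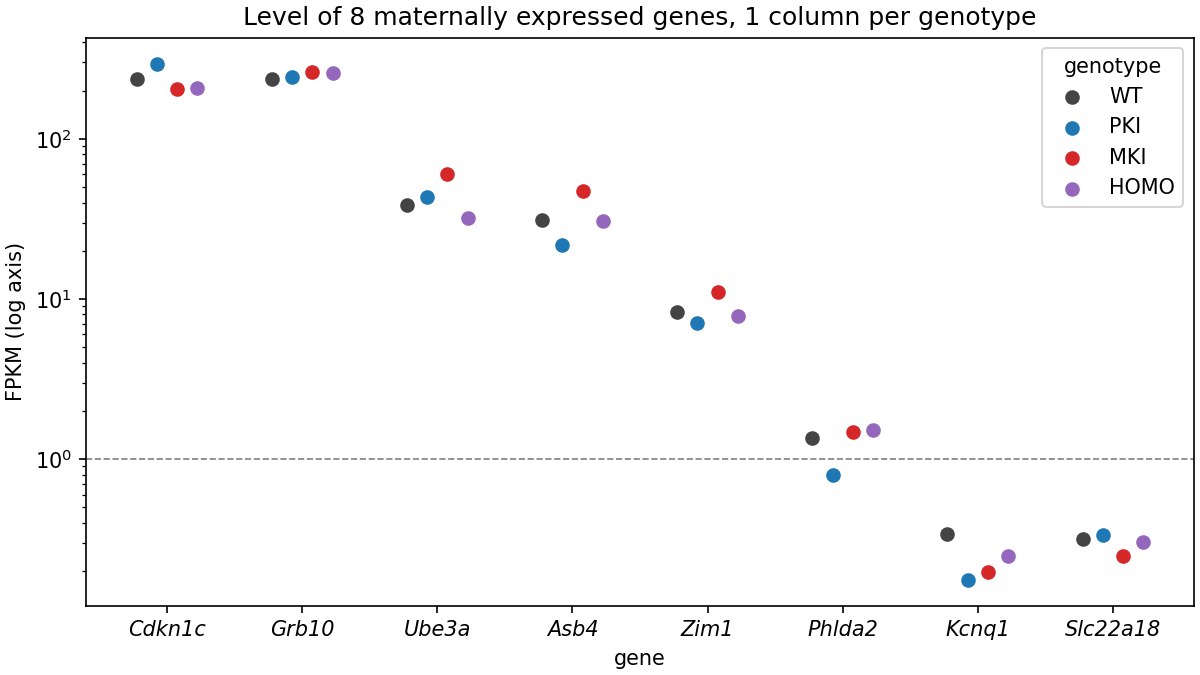
Level of each gene in FPKM on a log axis, with 1 point per genotype column and no error bars because each genotype has 1 column; the dashed line marks 1 FPKM. Differences between genes, from 0.176 to 295 FPKM, are far wider than differences between genotypes, which reach 2.16-fold for Asb4.

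Of the genes that restrain growth, Grb10 (ENSMUSG00000020176, chromosome 11, 11930499 to 12037428) was nearly level in the FPKM as deposited. It stood at 236 FPKM for WT, 245 for PKI, 261 for MKI and 258 for HOMO. All 3 knock-in columns lay slightly above WT, with differences of 0.06, 0.15 and 0.13 in log2(FPKM + 0.5), the scale of all differences here, although quantile normalization put PKI below WT (-0.21). Its range over the columns was 0.15, and 98.3% of the genes kept, or 99.6% of the 240 genes within 2-fold of its mean level, had a range at least as wide. Under quantile normalization its difference was 0.60 between MKI and WT and 0.81 between MKI and PKI (0.09 as deposited), a range that 44.3% of genes matched or exceeded, so its flatness depends on the scaling.

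Cdkn1c (ENSMUSG00000037664, chromosome 7, 143458339 to 143461059) stood at 236 FPKM for WT, 295 for PKI, 204 for MKI and 207 for HOMO. PKI was the highest column, and both columns with a maternal insertion were the lowest, whereas MKI was highest under quantile normalization. Against WT the differences were 0.32, -0.21 and -0.19 (-0.0089 and 0.21 for PKI and MKI under quantile normalization), and 30.4%, 77.5% and 40.5% of the genes kept lay at least as far from WT in the same comparisons. Cdkn1c and Grb10 were at equal levels in WT, with a Cdkn1c to Grb10 ratio of 1.00, while the ratio was 1.21 in PKI, 0.781 in MKI and 0.803 in HOMO.

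Phlda2 (ENSMUSG00000010760, chromosome 7, 143501545 to 143503145) was a weak signal at 1.36 FPKM for WT, 0.794 for PKI, 1.48 for MKI and 1.52 for HOMO. PKI was the only column below 1 FPKM, and the other 3 were close together. The difference of PKI from WT was -0.52, which the added 0.5 FPKM compresses; the plain ratio was 0.583, with no read count behind it to give a counting error. Phlda2 is strongest in placenta and yolk sac, so markers of both were read beside it. Of 13 trophoblast markers 1 passed the filter (Prl3b1), Syna was listed at 0 in every column, and their summed level was 2.27 FPKM for WT, 2.36 for PKI, 2.86 for MKI and 3.01 for HOMO. The 7 markers of yolk sac endoderm summed to 44.0 FPKM for WT, 20.8 for PKI, 43.1 for MKI and 46.5 for HOMO, so that PKI was lowest as for Phlda2. All 3 of them that were kept, Ttr, Apob and Sox17, lay below WT in PKI. Most of the sum came from Ttr, the transthyretin gene (13.4 FPKM in PKI against 29.6 in WT), and Apob (5.88 against 12.2). Amn, Cubn, Rhox5 and Apoa4 were below the filter. Of the sums described below, those of hepatocyte, neuronal and cartilage markers were also lowest in PKI, and those of mesenchyme and epidermis were lowest in MKI. The trophoblast sum was lowest in WT. The part of any of these markers in the Phlda2 difference was not tested. Ascl2, another placental gene of the cluster, lay between 0.0456 and 0.160 FPKM.

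Asb4 (ENSMUSG00000042607, chromosome 6, 5383386 to 5433022) had the widest range of the members. It stood at 31.2 FPKM for WT, 21.8 for PKI, 47.1 for MKI and 30.9 for HOMO. HOMO was level with WT (difference -0.02, or up to 0.05 with the columns rescaled), PKI lay below (-0.51) and MKI above (0.59). The step from PKI to MKI, 1.09, was the sole difference past 2-fold among the 6 kept genes in the 6 comparisons of column pairs. Its range was matched or exceeded by 25.4% of the genes kept.

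Ube3a (ENSMUSG00000025326, chromosome 7, 59228750 to 59310837) stood at 38.8 FPKM for WT, 43.1 for PKI, 60.1 for MKI and 32.0 for HOMO. The MKI column was the highest and HOMO the lowest, so that the columns with a maternal insertion lay at opposite ends, 0.90 apart. Against WT the differences were 0.15, 0.63 and -0.27. The antisense RNA Snhg14 overlaps Ube3a as Kcnq1ot1 overlaps Kcnq1; the libraries mark strand, per the labels' protocols, but no source used here says whether the counting used it.

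Zim1 (ENSMUSG00000002266, chromosome 7, 6674444 to 6696540) stood at 8.27 FPKM for WT, 7.10 for PKI, 10.98 for MKI and 7.83 for HOMO. WT, PKI and HOMO were close together and MKI lay above them, by 0.39 against WT. Asb4 and Zim1 were both highest in MKI and lowest in PKI. WT lay above HOMO for both as deposited, and for Zim1 but not Asb4 under the 3 scalings.

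The remaining members of the distal chromosome 7 cluster were near the floor. Kcnq1 (ENSMUSG00000009545, 143106877 to 143427050) was at 0.340 FPKM for WT, 0.176 for PKI, 0.196 for MKI and 0.248 for HOMO. Slc22a18 (ENSMUSG00000000154, 143473726 to 143499334) was at 0.315, 0.337, 0.249 and 0.305 FPKM in the same order. WT was highest for Kcnq1 and PKI for Slc22a18, and at such levels differences between single columns of unknown depth carry little weight.

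The comparison of each knock-in with WT asks whether an insertion on either copy of the domain goes with other levels of maternal genes elsewhere. None of the 6 genes kept lay 2-fold or more from WT in any knock-in. Of all genes, 2.15% did so in PKI (0.700% higher, 1.45% lower), 20.3% in MKI (1.22% higher, 19.1% lower) and 1.45% in HOMO (0.670% higher, 0.783% lower). At 1.5-fold, 2 of the 6 were past it in MKI, Asb4 and Ube3a, both higher, and none in PKI or HOMO, where 42.1%, 10.4% and 4.95% of all genes were. The median difference of the 6 was -0.07 in PKI, 0.27 in MKI and -0.04 in HOMO, beside -0.07, -0.11 and -0.06 over all genes kept. Over all 8 members it was -0.08, 0.12 and -0.05. In PKI 3 of the 6 lay above WT, in MKI 5 and in HOMO 2, where 40.5%, 44.6% and 38.5% of all genes kept did. Under quantile normalization the counts were 1, 6 and 3, beside 49.3%, 56.6% and 49.6% of all genes.

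**Figure D2:**
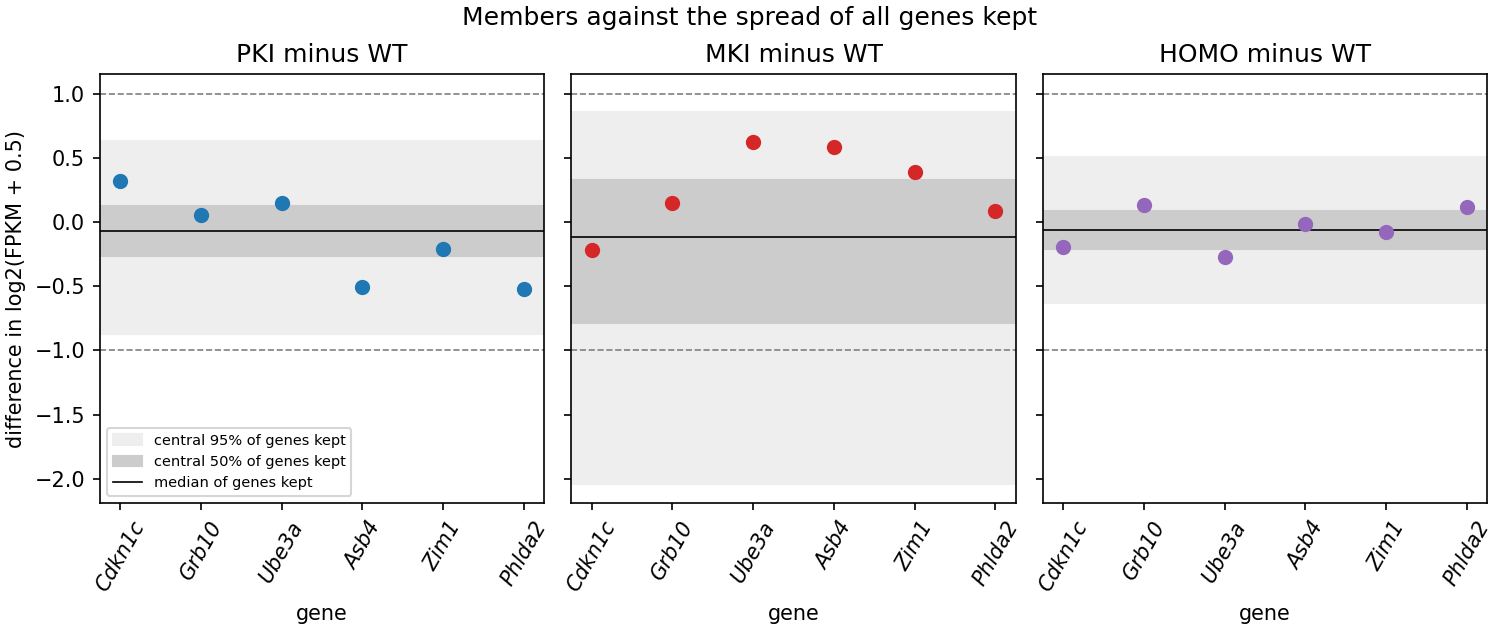
Difference from WT in log2(FPKM + 0.5) of the 6 genes kept, with 1 panel per knock-in column; the light and dark bands hold the central 95% and 50% of all 13279 genes kept, the solid line is their median and dashed lines mark 2-fold. Every point lies within the light band, and in MKI, where that band runs from -2.04 to 0.86, Ube3a, Asb4 and Zim1 lie above the dark one.

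The position of the MKI points should be read beside the length of the genes. Across 12333 genes with a RefSeq span, Spearman's rho between span and the MKI difference from WT was 0.34, against -0.28 for PKI and -0.15 for HOMO; genes of one column share its RNA and scaling, and these values are descriptions. Genes whose span was within 2-fold of the 82.1 kb of Ube3a had a median MKI difference of 0.13 (3340 genes), and for the 49.6 kb of Asb4 it was 0.08 (4317 genes). For the 107 kb of Grb10 it was 0.14 (2768 genes), but for the 22.1 kb of Zim1 it was -0.15 (5096 genes). For spans like that of Cdkn1c, 2.72 kb, the median was -0.74 (1393 genes), and for Phlda2 it was -0.87 (676 genes). Cdkn1c and Phlda2 in MKI, at -0.21 and 0.09, thus stood above the usual value of short genes. Ube3a, Asb4 and Zim1, at 0.63, 0.59 and 0.39, also stood above the medians for their spans, while Grb10, at 0.15, was level with its own. The part of span in these differences was not tested.

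The knock-in columns were also set directly against each other. Each count is given beside the share of all genes, and 6 genes are too few to tell a count from that share. HOMO against PKI had none of the 6 past 2-fold, where 2.87% of all genes were (1.55% higher, 1.32% lower), and Phlda2 past 1.5-fold, where 12.1% were, with a median of 0.10. HOMO against MKI had none past 2-fold, where 23.3% were (19.7% higher, 3.64% lower), and Asb4 and Ube3a past 1.5-fold, where 51.1% were, with a median of -0.24. MKI against PKI had Asb4 past 2-fold, where 2.55% of all genes were higher and 16.6% lower, 19.1% in all. Asb4, Phlda2 and Zim1 were past 1.5-fold there, beside 43.2% of all genes, and the median was 0.53 beside -0.04 over all genes kept.

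A maternal insertion can be read on either paternal background from pairs that share no column, MKI against WT and HOMO against PKI. Asb4 was higher in both, by 0.59 and 0.49, as were Zim1 (0.39 and 0.13), Grb10 (0.15 and 0.08) and Phlda2 (0.09 and 0.64). Cdkn1c was lower in both, by -0.21 and -0.51, although quantile normalization turned its MKI value to 0.21. Ube3a went opposite ways, 0.63 and -0.43. So 5 of 6 had the same sign in both pairs, where 37.9% of all genes kept had; under quantile normalization it was 4 of 6, beside 38.8%. For each of these 5 genes the smaller of its 2 differences was taken as a limit, 0.49 for Asb4 but 0.09 for Phlda2. The share of genes at or past that limit, in the same direction in both pairs, was 0.708% for Asb4 (94 genes). It was 7.79% for Zim1, 8.34% for Cdkn1c, 10.3% for Phlda2 and 11.3% for Grb10.

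**Figure D3:**
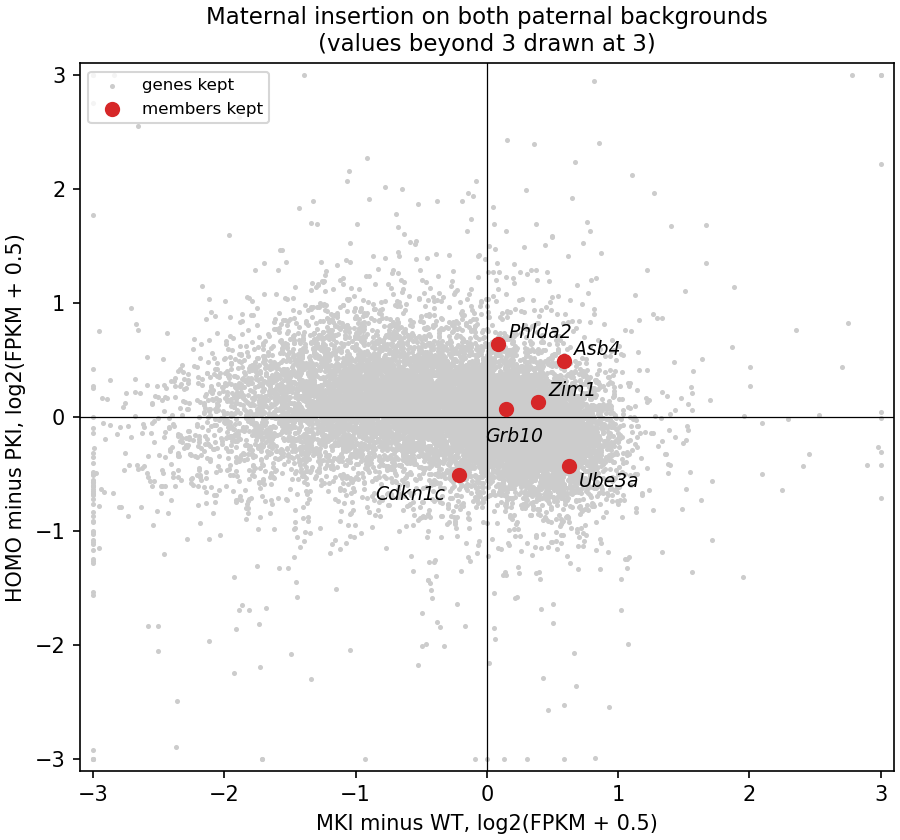
Each grey point is 1 of 13279 genes, plotted by its difference in log2(FPKM + 0.5) between MKI and WT (x axis) and between HOMO and PKI (y axis); red points are the 6 genes kept. Asb4, Zim1, Grb10 and Phlda2 lie at the upper right, Cdkn1c at the lower left (on the right under quantile normalization) and Ube3a at the lower right.

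For a paternal insertion the corresponding pairs are PKI against WT and HOMO against MKI. Asb4 was lower in both, by -0.51 and -0.60, and Zim1 by -0.21 and -0.46, while Cdkn1c was higher, by 0.32 and 0.02. Under quantile normalization both Cdkn1c values became negative, and under scaling by the trimmed mean or the median log ratio its second value did. Phlda2, Grb10 and Ube3a had opposite signs, except that rescaling made the second Phlda2 value negative (to -0.34) and quantile normalization the first Grb10 value. Thus 3 of 6 genes had the same sign, beside 47.0% of all genes, and 5 of 6 under quantile normalization, beside 46.2%. With the smaller difference again as the limit, the share of genes was 1.76% for Asb4, 9.77% for Zim1 and 18.1% for Cdkn1c. The limit for Cdkn1c was 0.02. Asb4 therefore had its lowest level with a paternal insertion alone and its highest with a maternal one alone. When both were present it stood at the WT level. The departure from adding the single differences was -0.09 for Asb4, whereas it was -1.05 for Ube3a. WT, the column without RNA of the Y-linked markers, enters this departure and a comparison of each pair. There, genotype and sex cannot be told apart.

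Markers of several cell types also differed between the columns. In PKI all 8 neuronal markers lay below WT (median -0.71), and their summed level was 301 FPKM against 482 in WT, 416 in MKI and 414 in HOMO. All 8 were also below WT in HOMO (median -0.28), while in MKI 5 of 8 lay above WT (median 0.39), and Tubb3, a neuronal tubulin gene, was at 41.4 against 183 FPKM. The 6 cartilage markers kept had a median of -0.81 in PKI, and 7 cartilage markers summed to 71.6 FPKM against 130 in WT, 78.5 in MKI and 120 in HOMO. In MKI 2 of these 6 lay above WT and 4 below, and Col2a1 was at 18.8 FPKM against 68.0. All 8 hepatocyte markers were below WT in PKI (median -1.46), with summed levels of 215 FPKM against 629, 1143 in MKI and 787 in HOMO. In MKI, and likewise in HOMO, 5 of the 8 lay above WT and 3 below. Alb alone was at 542 FPKM in MKI against 205 in WT, while Serpina1b was at 3.33 against 16.8. The 7 mesenchyme markers summed to 505 FPKM for WT, 477 for PKI, 378 for MKI and 519 for HOMO. All 4 epidermal markers were 2-fold above WT in PKI, with a summed level of 61.0 FPKM against 26.6, and 18.4 in MKI and 25.4 in HOMO. In MKI 1 of the 4 lay above WT and 3 below, and Krt14 was at 0.905 FPKM against 7.23. Of all genes kept, 0.700% were 2-fold higher in PKI. The share of all genes kept that lay above WT at all was 40.5% in PKI, 44.6% in MKI and 38.5% in HOMO. The part of these cell types in the levels of Asb4 and the other members was not tested.

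The neighbours of the members, protein-coding genes within 500 kb, give the local setting. On distal chromosome 7, 14 neighbours were kept, and 6 of them were more than 2-fold below WT in MKI, with a median of -0.82; none was so in PKI or HOMO. Across all genes, 19.1% were 2-fold lower in MKI. The genes with the largest differences were Tssc4 (6.72 against 19.8 FPKM in WT), Osbpl5, which encodes an oxysterol-binding protein (3.60 against 9.44), Dhcr7, the last enzyme of cholesterol synthesis (6.61 against 16.4), and Tspan32 (0.752 against 2.35). Igf2, the paternally expressed growth factor and the farthest of these neighbours, was at 380 FPKM for WT, 380 for PKI, 170 for MKI and 394 for HOMO. Cdkn1c and Phlda2 lay among these genes without such a difference in MKI, as did their neighbour Nap1l4, a histone chaperone gene (47.2, 47.8, 49.6 and 42.2 FPKM). The Cdkn1c to Igf2 ratio was 0.623 for WT, 0.777 for PKI, 1.20 for MKI and 0.526 for HOMO.

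**Figure D4:**
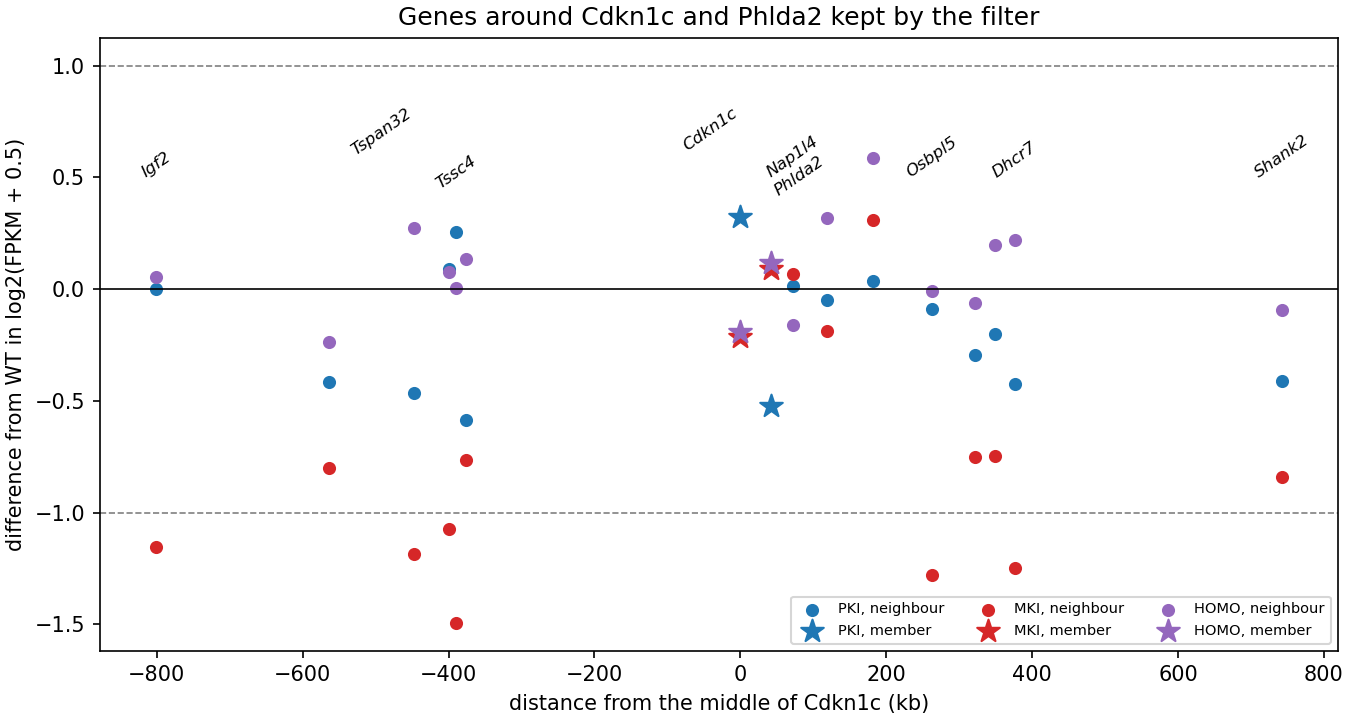
Difference from WT in log2(FPKM + 0.5) of the genes kept around Cdkn1c, by distance in kb from the middle of Cdkn1c; stars are Cdkn1c and Phlda2, circles their neighbours, colours the knock-in column, and dashed lines 2-fold. The MKI circles reach -1.49 at Tssc4, while the MKI stars lie at -0.21 and 0.09.

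Around the other members few neighbours were kept, too few to set their counts apart from the share of all genes. That share, 2-fold or more from WT, was 2.15% in PKI, 20.3% in MKI and 1.45% in HOMO. Near Zim1 9 neighbours were kept, and Zfp444 was the one past 2-fold, at 2.17 FPKM in MKI against 7.18 in WT, while the median of the 9 in MKI was 0.46. The paternally expressed Peg3 next to Zim1, a zinc finger gene that affects growth and maternal behaviour, was at 117, 115, 176 and 107 FPKM across WT, PKI, MKI and HOMO, and like Zim1 was highest in MKI. Near Grb10 4 genes were kept; Ikzf1, a lymphoid transcription factor gene, was at 1.17 FPKM in PKI against 4.05 in WT. Near Asb4 none of 4 kept genes was 2-fold away from WT, and near Ube3a the single neighbour in the table was Atp10a, at 1.02 to 1.901 FPKM.

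Among 26 further genes reported as maternally expressed in some tissue, 20 were kept. Relative to WT 1 was 2-fold lower in PKI, 5 in MKI and none in HOMO, and none was 2-fold higher in any, with medians of -0.05, -0.26 and -0.02. The shares of all genes 2-fold lower were 1.45% in PKI and 19.1% in MKI, and the MKI count is near that background. H13, an intramembrane protease gene, was among the 5, at 9.67 FPKM against 22.8. The others, Cd81, Tspan32, Tssc4 and Osbpl5, were already counted above among the distal chromosome 7 neighbours. Of 22 paternally expressed genes 21 were kept, with none 2-fold from WT in PKI or HOMO and 2 lower in MKI, Nnat (64.2 against 309 FPKM) and Igf2. Their medians were -0.10, 0.25 and -0.12. In MKI the paternal list and the 6 members thus had like medians, 0.25 and 0.27.

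Relatives and partners of the members were read last. Of 20 cell cycle inhibitors, cyclins and their partners 18 were kept; none was 2-fold from WT in PKI or HOMO, and 4 were lower in MKI, a share near the 19.1% of all genes. These were Ccnd3, a D-type cyclin (14.1 against 64.4 FPKM), Cdkn2d, which encodes an INK4 inhibitor (1.33 against 7.48), Cdkn1a, the p21 gene (2.53 against 7.57), and E2f1 (3.66 against 9.78). Cdkn1b, the p27 gene and the other close relative of Cdkn1c, stood at 18.3 FPKM for WT, 16.9 for PKI, 15.3 for MKI and 15.8 for HOMO. Of 18 genes of insulin and IGF signalling 4 were 2-fold lower in MKI, again near the 19.1% of all genes, and none in PKI or HOMO, with Gigyf1, a binding partner of Grb10 (1.76 against 9.41 FPKM), farthest, then Igf2, Grb7 (0.851 against 2.27) and Akt1 (35.4 against 71.5). The Igf1r level was 25.2, 17.4, 24.3 and 26.3 FPKM across WT, PKI, MKI and HOMO.

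Among 21 other ASB and cullin 5 ligase genes 11 were kept, and Asb6 alone was 2-fold away, at 1.25 FPKM in MKI against 4.24. Cul5, the cullin scaffold that Asb4 uses, was at 15.5, 17.8, 29.0 and 16.6 FPKM. All 22 genes of other HECT ligases and of E2 enzymes were kept, and 18 lay above WT in MKI (median 0.39), where 44.6% of all genes did (median -0.11), with Ube3b, a HECT ligase gene, the exception past 2-fold at 7.71 against 23.5 FPKM. Phlda3 was at 1.22 FPKM in MKI against 6.53, and Phlda1 at 7.00 against 9.53. Of the potassium channel relatives of Kcnq1, 7 of 10 were kept, and Kcnh2 (2.27 against 5.92 FPKM) was among the 3 that were 2-fold lower in MKI. Of 13 SLC22 transporters 5 were kept, and Slc22a17 was lower in MKI, at 2.83 against 23.9 FPKM. No gene of the lists just given was 2-fold from WT in PKI or HOMO, where 2.15% and 1.45% of all genes were. In MKI 19.1% of all genes were 2-fold lower.

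The genes most like Asb4 over the 4 columns, by Euclidean distance between log2 values centred on each gene's mean, were Ebf1, a transcription factor gene (12.62, 8.80, 18.4 and 12.4 FPKM across WT, PKI, MKI and HOMO; distance 0.05), Cntn1, a neural adhesion gene (2.40, 1.45, 3.59 and 2.30 FPKM; 0.07), and Gclc, a glutathione synthesis gene (8.11, 5.44, 11.8 and 8.16 FPKM; 0.07). With 4 columns such likeness is common, and 167 genes lay within 0.25.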

How the data were processed

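Whole embryos of 4 genotypes were profiled, with 8 libraries in the labels and 1 column per genotype in each table. The authors deposited the mRNA table, taken here as FPKM: the header names no unit, and StringTie 1.3.4d, HISAT2 2.0.4, cutadapt 1.9 and the build GRCm38 stand in the submitters' processing notes with no role or order. The deposited microRNA table holds RPM, whose values were whole multiples of 1 read (100.0% to within 0.02 of a read). Each microRNA column thus holds whole reads, of 1 library or of pooled ones. The long non-coding RNA table, also deposited by the authors and taken as FPKM, was not used here.

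Ensembl identifiers were matched to symbols for 22022 of 22036 entries, the other 7603 entries being assembled genes, and entries sharing a symbol were summed. Genes at 1 FPKM or more in at least 2 columns were kept. Differences are of log2(FPKM + 0.5), which understates folds of low genes. The design named limma for 2 libraries per group; with 1 column each it could not be fitted, so counts past 2-fold and medians are given without p-values. The depth behind the FPKM values is unknown. Named genes from each list are those at least 2-fold from WT and at 2 FPKM or more in the higher column. At most 4 per list are named, by size, besides imprinted neighbours. Other named genes were chosen after their values were seen (Cdkn1b, Igf1r, Cul5, Phlda1, the yolk sac markers, Tubb3, Col2a1, Alb, Serpina1b, Krt14 and, as a flat neighbour, Nap1l4). Genes like a member were sought for members past 2-fold in any comparison. The members and lists were chosen with earlier results of these data known. Steps were checked on simulated data with Python 3.11.15, numpy 2.4.6 and pandas 2.3.3. Alternatives were other pseudocounts (0.1 and 1), no filter or 5 FPKM, quantile normalization, scaling by a trimmed mean or median of log ratios, and a threshold of 1.5-fold.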

Additional observations from a re-analysis of the deposited data

How the results depend on the processing

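Counts past 2-fold among the 6 genes kept were the same under both pseudocounts, both other filters and all 3 scalings. At 1.5-fold they came to 2 for MKI against WT, 1 for HOMO against PKI, 2 for HOMO against MKI and 3 for MKI against PKI, beside 42.1%, 12.1%, 51.1% and 43.2% of all genes. The median difference of MKI against WT was 0.12 without a filter (8 genes), 0.39 with the stricter one (5 genes), 0.59 under quantile normalization, 0.42 under the trimmed mean and 0.385 under the median log ratio. For PKI against WT the stricter filter gave 0.0565. For HOMO against PKI quantile normalization gave 0.22. For HOMO against MKI the median was 0.0045 without a filter, -0.46 with the stricter one and -0.52 under quantile normalization, and for MKI against PKI it was 0.28 without a filter and 0.78 under quantile normalization. The filters act through the number of genes in the median; the cause of the other shifts was not tested. Quantile normalization moved the median of all genes from -0.11 to 0.14 in MKI against WT. Of 36 differences of a kept gene in a column pair, 7 changed sign in at least 1 alternative; the Asb4 difference of MKI and PKI stayed between 1.06 and 1.17. No paired analysis was possible because each genotype has 1 column with no replicate number, and for the same reason no replicate could be left out.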

Other observations

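Asb4 and Peg10 lie in the same imprinted region of chromosome 6 but are read from opposite parental copies; Peg10, at 4747306 to 4760517, is a retrotransposon-derived gene needed for the placenta. Peg10 stood at 97.5 FPKM for WT, 63.8 for PKI, 142 for MKI and 96.3 for HOMO. The Asb4 to Peg10 ratio was therefore nearly constant, at 0.320, 0.342, 0.331 and 0.321 in the same order. By the distance between centred log2 values Peg10 was among the 7 genes nearest to Asb4, or 0.0527% of those kept. Sgce, the paternally expressed gene beside Peg10, was not so close: its pattern (16.2, 17.4, 20.4 and 15.7 FPKM) lay no nearer to that of Asb4 than those of 28.4% of genes. The corresponding share was 9.05% for Peg3 and 6.09% for Usp29 beside Zim1, 67.9% for Igf2 beside Cdkn1c, and 43.3% for Snrpn and 21.8% for Ndn beside Ube3a. These pairs were chosen after their values were seen.

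The maternally expressed H19 RNA was not itself read here, but the microRNA it carries, miR-675, was. The miR-675 arms are shown with the seed, bases 2 to 8, in capitals (RefSeq, GRCm38.p6, minus strand, chr7:142577112-142577133 and chr7:142577078-142577099).
mmu-miR-675-5p: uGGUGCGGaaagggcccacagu
mmu-miR-675-3p: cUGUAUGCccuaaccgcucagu
The 5p arm had 202 reads for WT, 282 for PKI, 340 for MKI and 304 for HOMO, or 24.0, 27.997, 39.4 and 37.9 RPM. Its ratio to WT was 1.64 in MKI (exact 95% interval 1.37 to 1.96) and 1.58 in HOMO (1.32 to 1.89), and 1.17 in PKI (0.969 to 1.40). The intervals cover counting error only. Counted over reads outside the domain microRNAs, which are nearly missing in MKI and HOMO, the ratios were 1.42 (1.19 to 1.70) and 1.37 (1.14 to 1.64). The 3p arm went the other way in MKI, with 65 reads against 91 in WT and a ratio of 0.695 (0.498 to 0.966), and in HOMO its ratio was 1.28 (0.961 to 1.71). The miR-483-3p carried by the paternally expressed Igf2 was at 322, 206, 257 and 378 RPM across WT, PKI, MKI and HOMO, whereas Igf2 mRNA was low in MKI alone. Its other arm, miR-483-5p, was at 219, 194, 193 and 240 RPM, with ratios to WT of 0.883 in PKI and 0.877 in MKI. From Mest, another paternally expressed gene, miR-335-5p stood at 2623, 2816, 3754 and 3319 RPM, with a ratio of MKI to WT of 1.43, or 1.24 over reads outside the domain. The more abundant miR-335-3p stood at 9667, 12491, 11712 and 12681 RPM, with MKI between WT and PKI.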
